A study of Mus musculus with 12 samples.

Results

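The genes described here are 43 genes through which cells take up and convert glucose, fructose and galactose: transporters for sugars, lactate and pyruvate, the enzymes of glycolysis, fructose and galactose use and gluconeogenesis, the enzymes that direct pyruvate, and regulators that respond to sugar. They were taken by gene symbol from a list written with earlier results of these data known. All 43 were present in both count tables among the 18929 genes listed in either. Poly(A) RNA was sequenced from murine jejunal enteroids, which are cultures of intestinal epithelium that grow from isolated crypts in a gel and form buds with stem, absorptive and secretory cells. Control enteroids came from a villin-Cre mouse, Hdac1-deficient and Hdac2-deficient enteroids from mice in which floxed Hdac1 or Hdac2 had been deleted by the same Cre, driven by the villin promoter in intestinal epithelium. All were grown for 5 days in ENR medium, a medium with EGF, noggin and R-spondin 1. The mice were of mixed origin (C57BL/6 J X 129SV X CD1), and each group had 4 libraries. Ages of the mice were not given in the sources used here. The crypts came from 1 mouse of each genotype, so the genotype cannot be told apart from the mouse or the culture grown from it, and the p-values measure the spread between libraries, which may be technical.

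Absorptive enterocytes take up glucose and galactose from the gut lumen through a sodium-coupled transporter and fructose through a facilitative one, and pass them to the blood across the basal membrane. Glycolysis splits glucose to pyruvate, which is reduced to lactate, carried into mitochondria, or used to rebuild glucose by gluconeogenesis, and several of its steps are served by alternative isozymes with different tissue distributions. HDAC1 and HDAC2 are class I deacetylases that remove acetyl groups from histones and other proteins and act in co-repressor complexes.

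Library depth, as the sum of gene counts, ran from 20693200 to 30658628. Levels are given as CPM (counts scaled to library size, scaled by TMM over all 12 libraries), and where genes are compared with each other as CPM per kilobase of exon (RPKM). Hdac1 stood at 90.6 ± 2.76 CPM (mean and SD of 4) in control and 4.23 ± 0.834 CPM where it had been deleted, and Hdac2 at 137 ± 3.85 CPM in control and 75.9 ± 2.89 CPM where Hdac2 had been deleted. Gene counts do not separate the deleted exons from the others. All 7 epithelial markers were listed, with a summed level between 6029 and 8128 CPM, whereas 2 fibroblast markers summed to at most 0.356 CPM and Col1a2, Col3a1, Dcn and Lum were not in the tables. Enterocyte markers summed to 10043 to 10540 CPM in control, 19441 to 22256 in Hdac1-deficient and 16235 to 18128 in Hdac2-deficient libraries, and 6 stem and crypt markers to 4637 to 4769, 2776 to 3222 and 2488 to 2720 CPM. Paneth cell markers summed to 2132 to 2484, 3098 to 3362 and 3378 to 3531 CPM and goblet cell markers to 1434 to 1693, 1608 to 1731 and 2532 to 2776 CPM in the same order. Of 13 enterocyte markers, 12 passed the filter, and all 12 rose and all 6 crypt markers fell in each mutant. Of 6 Paneth cell markers tested, 2 rose and 1 fell with Hdac1 deleted (median log2 fold change 0.02), and 5 rose and 0 fell with Hdac2 deleted. Of 7 goblet cell markers, 4 rose and 1 fell, and 6 rose and 0 fell, in turn. Of 6 proliferation markers, 1 rose and 4 fell in each mutant. In bulk RNA, fewer cells of a type and less RNA per cell cannot be told apart, and the part of these shifts in the results that follow was not tested.

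In Hdac1-deficient enteroids the gluconeogenic genes Fbp1, G6pc and Pck1 rose and Pck2 and Pcx fell, all past 2-fold. The intestinal sugar transporters Slc5a1, Slc2a5 and Slc2a2 and the sugar-responsive factor Mlxipl rose. Of 17 glycolytic genes, among them the regulatory Pfkfb2, Pfkfb3 and Pfkfb4, 12 fell and 4 rose. In Hdac2-deficient enteroids Fbp1, G6pc, Pck1, the same transporters and Mlxipl rose as well, Pck2 fell and Pcx rose, and 9 of the 17 glycolytic genes rose and 3 fell. Of the 43 genes, 42 passed the filter on low counts and were tested with edgeR's quasi-likelihood test, in which "rose" and "fell" denote an adjusted p of at most 0.05. In Hdac1-deficient enteroids, 16 rose and 22 fell, against 32.7% and 31.9% (64.6% in either direction) of all 14246 genes tested. Changes of more than 2-fold (log2 fold change, log2 FC, above 1 or below -1) were found for 6 that rose and 2 that fell, where 6.87% and 3.71% (10.6% in either direction) of all genes passed these limits. In Hdac2-deficient enteroids, 26 rose and 8 fell, against 31.4% and 30.9% (62.3% in either direction) of all 14007 genes. Past 2-fold, 2 rose and 0 fell, against 5.45% and 2.84% (8.3% in either direction) of all genes. Without control replicate 1, 4 rose past 2-fold, as G6pc and Ldhb joined Galt and Pck1. Gapdh, Ldha, Pdha1 and Mpc2 did not pass the test in Hdac1-deficient enteroids, and Slc2a1, Gpi1, Pfkl, Aldoc, Tpi1, Eno1, Pdha1 and Mpc2 did not in Hdac2-deficient enteroids. The median log2 fold change of the 42 genes was -0.20 with Hdac1 deleted and 0.16 with Hdac2 deleted, beside -0.00397 and -0.00356 for all genes tested. The ranges of the 4 mutant and 4 control libraries did not overlap for 38 and 36 of the 42 genes, compared with 58.4% and 56% of all genes tested. Both comparisons used the same 4 control libraries, so they are not independent of each other.

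**Figure D1:**
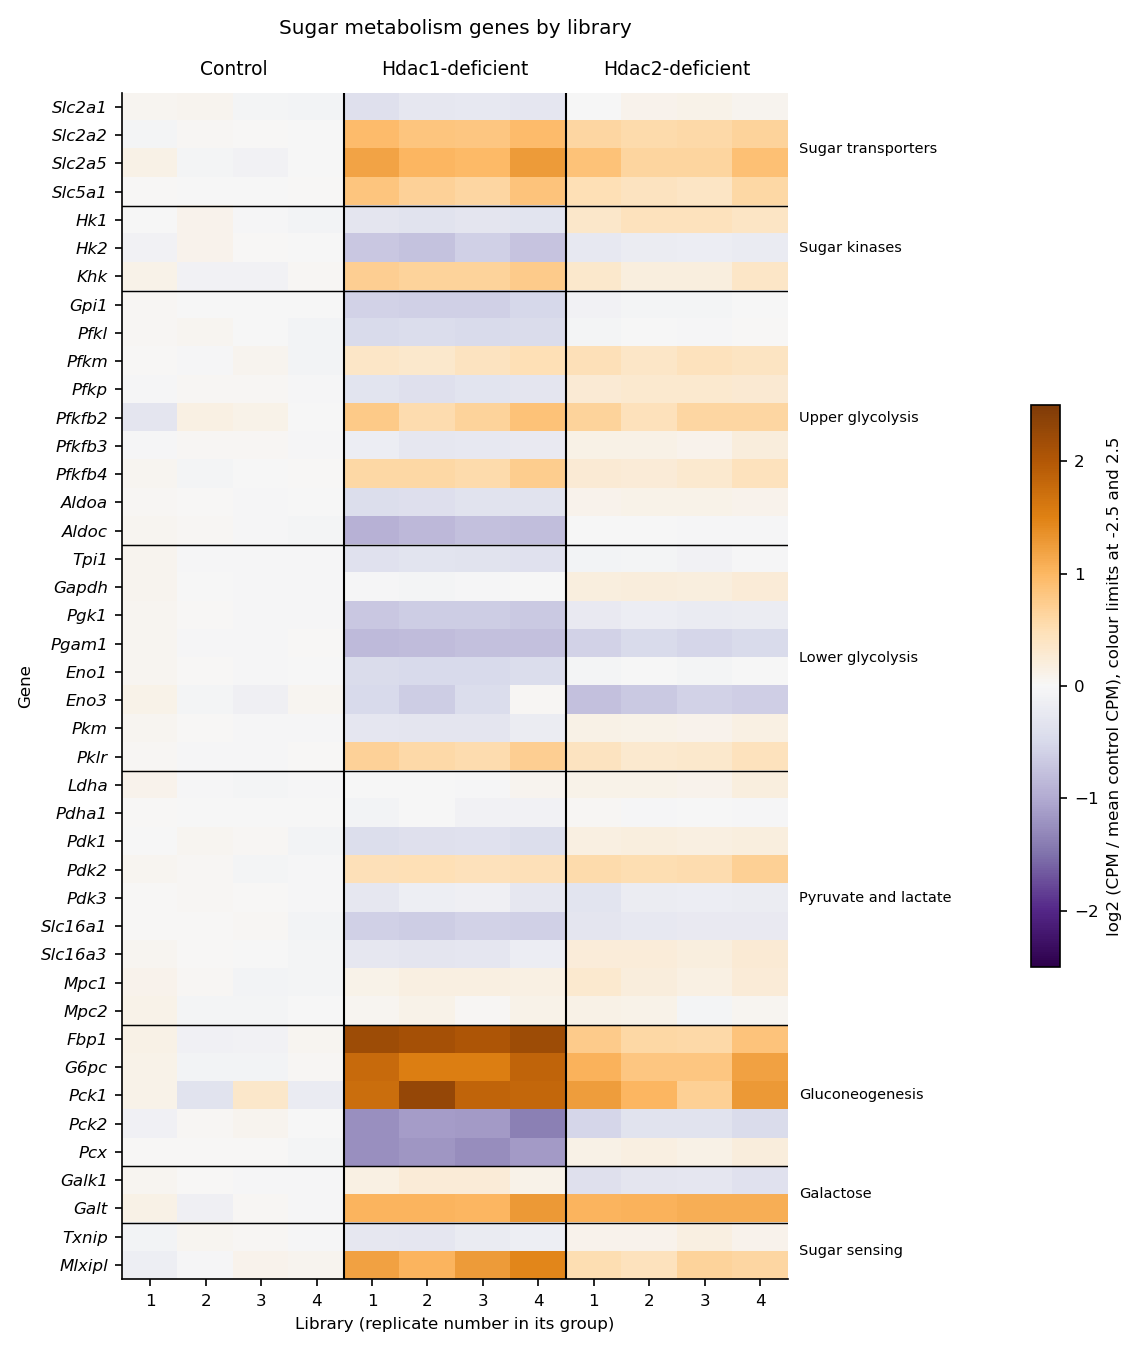
Heat map of the 42 tested genes (rows, by role) in the 12 libraries (columns), coloured by log2 of the CPM over the mean control CPM. Fbp1, G6pc and Pck1 are the darkest orange rows in the Hdac1-deficient columns, Pck2 and Pcx the darkest purple, and the 4 columns of a group look alike for nearly every gene.

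Promoter windows of 300 bases (250 before and 50 after each transcription start, RefSeq, GRCm38.p6) were available for all 43 genes, 64 windows in total, and were searched on both strands for motifs of sugar- and oxygen-responsive and hepatic factors. The core of the hypoxia response element, ACGTG, was found in 42.2% of the windows, against 19.6% of all 32851 windows in the reference. The E-box CACGTG, which contains that core on both strands, was found in 18.75% against 7.15%. By gene, 8 of the 16 that rose and 13 of the 22 that fell in Hdac1-deficient enteroids had a window with ACGTG, and 8 of 16 and 3 of 22 had one with CACGTG. In Hdac2-deficient enteroids, 15 of the 26 that rose and 6 of the 8 that fell had ACGTG, and 10 of 26 and 2 of 8 CACGTG. Shares of all genes by direction were not computed, and a link between motif and direction was not tested. The tandem E-box-like motif, written after the element bound by the Mlxipl product ChREBP with its partner Mlx, matched 2 of the 64 windows (Pklr and Txnip) and 0.365% of all windows. For GTTAAT, a short motif of the hepatic and intestinal factor HNF1, the shares were 6.25% and 7.10%. The GC box GGGCGG was in 56.25% and 35.7%, the TATA box TATAAA in 4.69% and 13.6%, and the HNF4 element CAAAGTCCA in 0 of the 64 member windows and 0.475% of all. A match describes letters in a window and does not show binding.

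The windows of 6 genes picked as examples of these motifs are shown upstream of the RefSeq start, 5′ to 3′ on the gene's strand, with the matched motif in capitals. For Pklr, with 2 windows, and Aldoa, with 3, the window with the most matches was taken. Bases inside an exon annotated in GENCODE for the same gene were left off, which shortened the windows of Pklr and G6pc. Pklr at chr3:89136373-89136571 (+) and Txnip at chr3:96557707-96557956 (+) hold the tandem motif, Pgk1 at chrX:106186850-106187099 (+) and Aldoa at chr7:126799255-126799504 (-) the hypoxia core, G6pc at chr11:101367466-101367560 (+) the HNF1 motif, and Fbp1 at chr13:62888283-62888532 (-) a GC box. In G6pc, TATAAA was also found 29 bases before the start, outside the stretch shown.
Pklr: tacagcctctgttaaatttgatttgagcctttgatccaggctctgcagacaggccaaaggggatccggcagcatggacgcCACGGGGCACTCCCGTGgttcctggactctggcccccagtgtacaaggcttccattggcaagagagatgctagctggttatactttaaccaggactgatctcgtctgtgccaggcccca
Txnip: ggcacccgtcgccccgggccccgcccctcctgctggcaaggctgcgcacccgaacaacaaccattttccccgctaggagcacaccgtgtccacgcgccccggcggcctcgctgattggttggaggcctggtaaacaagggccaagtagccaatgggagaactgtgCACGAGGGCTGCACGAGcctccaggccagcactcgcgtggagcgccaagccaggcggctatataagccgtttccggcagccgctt
Pgk1: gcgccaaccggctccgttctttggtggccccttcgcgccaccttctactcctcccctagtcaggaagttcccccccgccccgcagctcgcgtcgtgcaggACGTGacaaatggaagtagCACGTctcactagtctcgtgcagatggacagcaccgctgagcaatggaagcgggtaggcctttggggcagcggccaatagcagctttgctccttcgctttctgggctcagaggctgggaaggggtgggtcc
Aldoa: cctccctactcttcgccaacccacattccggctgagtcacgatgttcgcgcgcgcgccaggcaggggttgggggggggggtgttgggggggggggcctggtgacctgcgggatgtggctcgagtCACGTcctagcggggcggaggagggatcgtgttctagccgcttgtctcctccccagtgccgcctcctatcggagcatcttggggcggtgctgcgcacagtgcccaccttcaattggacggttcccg
G6pc: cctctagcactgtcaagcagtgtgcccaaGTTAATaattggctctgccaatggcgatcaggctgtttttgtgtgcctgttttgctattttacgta
Fbp1: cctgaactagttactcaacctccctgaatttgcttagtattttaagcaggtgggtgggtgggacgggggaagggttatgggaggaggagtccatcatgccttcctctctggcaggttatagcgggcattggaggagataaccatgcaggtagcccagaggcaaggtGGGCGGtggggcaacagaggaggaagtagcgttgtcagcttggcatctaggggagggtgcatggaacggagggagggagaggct
The tandem motif lies 170 to 154 bases before the start in Pklr and 85 to 69 bases before it in Txnip, and in Pgk1 the 2 hypoxia cores lie 150 and 131 bases upstream, on opposite strands.

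Of the 4 sugar transporters, Slc5a1, Slc2a5 and Slc2a2 rose in both mutants, and Slc2a1 fell in Hdac1-deficient enteroids. Slc5a1 (SGLT1), the sodium-coupled carrier of glucose and galactose in the brush border, was counted at 1166, 1150.0, 1145 and 1165 CPM in the control libraries. The values were 2065, 1846, 1772 and 2089 CPM with Hdac1 deleted and 1625, 1545, 1497 and 1747 CPM with Hdac2 deleted. The groups did not overlap, and its log2 FC was 0.76 (standard error 0.05, adjusted p = 2.9e-11) with Hdac1 deleted and 0.48 (standard error 0.04, adjusted p = 8.9e-10) with Hdac2 deleted. Slc2a5 (GLUT5), the fructose carrier, was counted at 134, 119, 114 and 122 CPM in control. Hdac1-deficient libraries had 278, 245, 239 and 291 CPM, and Hdac2-deficient libraries had 223, 191, 191 and 228 CPM. Its log2 FC of 1.12 (standard error 0.07, adjusted p = 1.7e-07) was past 2-fold in Hdac1-deficient enteroids and reached 0.78 (adjusted p = 2.0e-05) in Hdac2-deficient enteroids. Slc2a2 (GLUT2), the carrier of low affinity through which sugars leave the enterocyte, had means of 134 CPM for control, 248 CPM for Hdac1-deficient and 204 CPM for Hdac2-deficient libraries, with log2 FCs of 0.90 (adjusted p = 2.1e-14) and 0.61 (adjusted p = 3.4e-13). For Slc2a1 (GLUT1), the widespread glucose carrier, the libraries gave 162, 166, 152 and 149 CPM in the control libraries. The values were 120.4, 131, 132 and 129 CPM with Hdac1 deleted and 156, 167, 170.2 and 164 CPM with Hdac2 deleted. All Hdac1-deficient libraries lay below control, with a log2 FC of -0.28 (standard error 0.04, adjusted p = 3.5e-06), whereas the Hdac2-deficient libraries overlapped control at a log2 FC of 0.07 (standard error 0.04, adjusted p = 0.082). Slc2a1 passed the test in Hdac2-deficient enteroids without Hdac2-deficient replicate 1 (adjusted p = 0.026), control replicate 1 (0.038) or control replicate 2 (0.029). The enterocyte markers described above were higher in the same libraries as the intestinal carriers.

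The kinases that trap sugars inside the cell did not move together. Khk, ketohexokinase, which phosphorylates fructose, was counted at 382, 333, 334 and 361 CPM in control. Hdac1-deficient libraries had 582, 557, 558 and 597 CPM, and Hdac2-deficient libraries had 444, 400.5, 401 and 455 CPM. It rose with log2 FCs of 0.72 (standard error 0.04, adjusted p = 2.1e-11) with Hdac1 deleted and 0.28 (standard error 0.05, adjusted p = 5.9e-04) with Hdac2 deleted, with no overlap with control. Hk2, an inducible hexokinase, was counted at 94.9, 107, 101 and 99.8 CPM in the control libraries. The values were 62.4, 60.2, 66.2 and 60.9 CPM with Hdac1 deleted and 85.4, 88.5, 89.4 and 87.3 CPM with Hdac2 deleted. It fell in both mutants with log2 FCs of -0.68 (adjusted p = 3.1e-11) and -0.19 (adjusted p = 1.5e-04). Hk1, the constitutive hexokinase, gave 69.5, 74.5, 68.7 and 66.7 CPM in control. Hdac1-deficient libraries had 56.9, 55.2, 56.9 and 56.1 CPM, and Hdac2-deficient libraries had 88.0, 94.6, 95.1 and 91.4 CPM. The 3 groups were separate, with the Hdac1-deficient libraries lowest at a log2 FC of -0.30 (standard error 0.04, adjusted p = 1.8e-06) and the Hdac2-deficient libraries highest at a log2 FC of 0.41 (standard error 0.04, adjusted p = 9.0e-09).

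**Figure D2:**
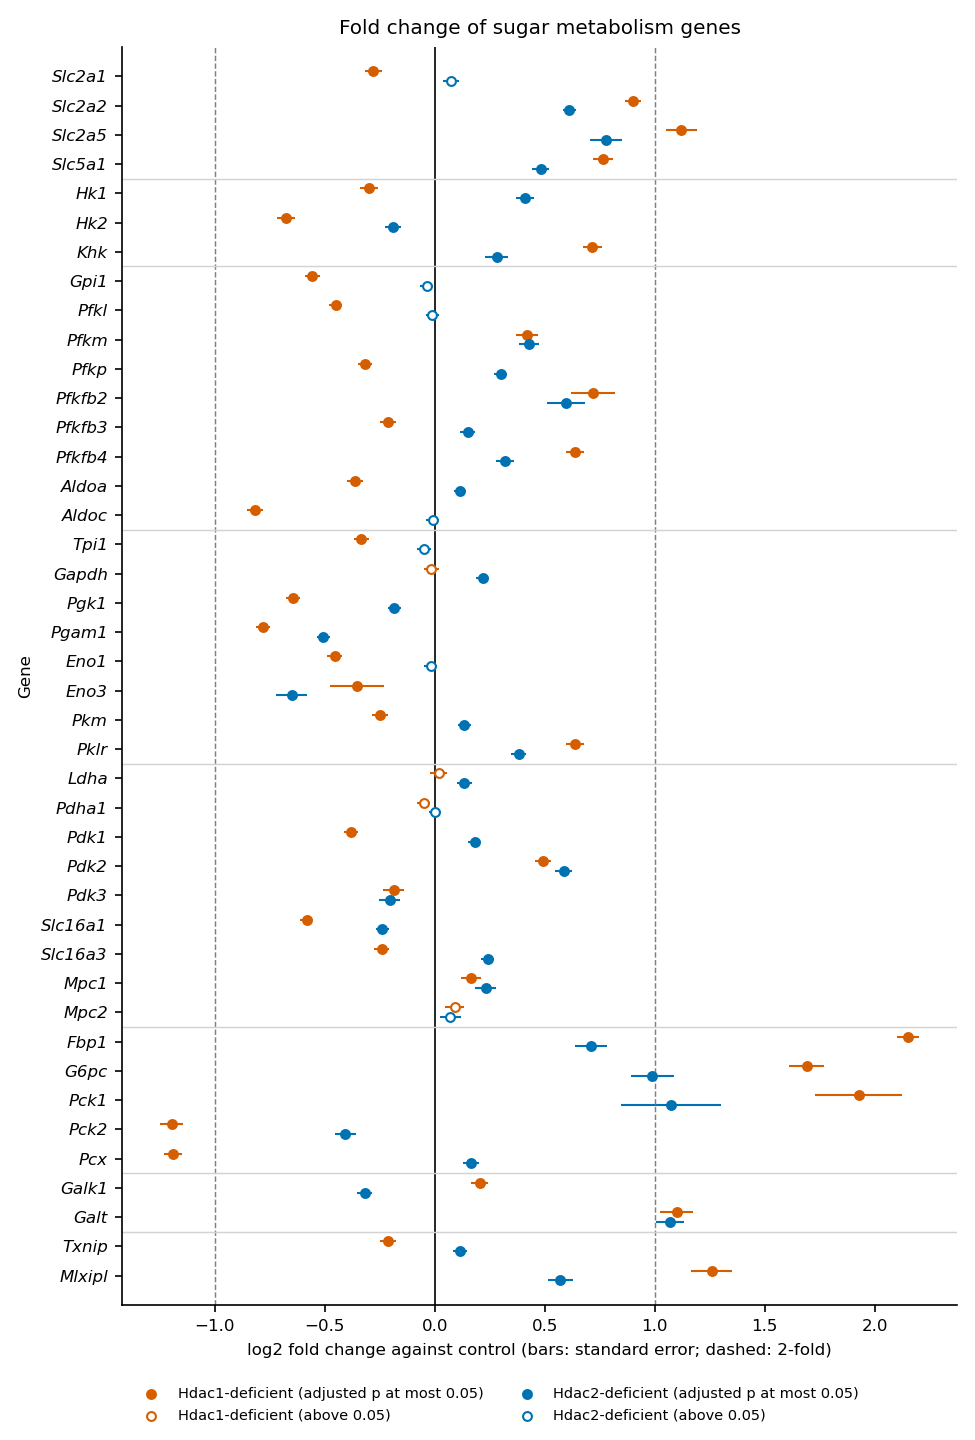
Log2 fold change against control (x axis) of the 42 tested genes (y axis, ordered by role), with standard error bars, for Hdac1-deficient (orange) and Hdac2-deficient (blue) enteroids, where filled points have an adjusted p of at most 0.05 and dashed lines mark 2-fold. Fbp1 lies farthest right at 2.15 in Hdac1-deficient enteroids, and Pck2 and Pcx lie left of -1 there, with Pcx right of 0 in Hdac2-deficient enteroids.

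In the upper part of glycolysis, 9 genes were counted, among them the regulatory Pfkfb2, Pfkfb3 and Pfkfb4. In Hdac1-deficient enteroids 6 of the 9 fell and 3 rose. In Hdac2-deficient enteroids 6 rose, 0 fell and 3 did not pass the test. In either direction these were 100% and 66.7%, against 64.6% and 62.3% of all genes tested. Aldoc, an aldolase isozyme best known from brain, was counted at 174, 173, 165 and 164 CPM in the control libraries. The values were 89.4, 93.4, 98.7 and 98.1 CPM with Hdac1 deleted and 167, 167, 167 and 167 CPM with Hdac2 deleted. The Hdac1-deficient libraries lay below all others, at a log2 FC of -0.82 (standard error 0.04, adjusted p = 2.1e-13), and the Hdac2-deficient libraries overlapped control at a log2 FC of -0.01 (adjusted p = 0.81). Aldoa, the widespread aldolase, gave 2452, 2406, 2349 and 2360.4 CPM in control. Hdac1-deficient libraries had 1781, 1810.3, 1899 and 1878 CPM, and Hdac2-deficient libraries had 2551, 2594, 2589 and 2549 CPM. It fell with a log2 FC of -0.36 (adjusted p = 1.7e-08) with Hdac1 deleted and rose with a log2 FC of 0.12 (adjusted p = 0.0017) with Hdac2 deleted, without overlap. Gpi1, which interconverts glucose and fructose phosphates, fell with a log2 FC of -0.56 (adjusted p = 1.3e-11) in Hdac1-deficient enteroids and had a log2 FC of -0.04 (adjusted p = 0.29) in Hdac2-deficient enteroids.

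Phosphofructokinase, the committed step, is encoded by 3 genes. Pfkl, the liver type, fell with a log2 FC of -0.45 (adjusted p = 1.6e-10) in Hdac1-deficient enteroids, where Pfkp, the platelet type, fell with a log2 FC of -0.32 (adjusted p = 2.1e-08) and Pfkm, the muscle type, rose with a log2 FC of 0.42 (adjusted p = 3.8e-07). In Hdac2-deficient enteroids Pfkp and Pfkm rose with log2 FCs of 0.30 (adjusted p = 7.5e-09) and 0.43 (adjusted p = 6.1e-08), and Pfkl stood at a log2 FC of -0.01 (adjusted p = 0.76). The bifunctional PFKFB enzymes set the level of fructose 2,6-bisphosphate, the main activator of phosphofructokinase. Pfkfb2 and Pfkfb4 rose in Hdac1-deficient enteroids with log2 FCs of 0.72 (adjusted p = 1.0e-04) and 0.64 (adjusted p = 8.3e-11), and in Hdac2-deficient enteroids with log2 FCs of 0.60 (adjusted p = 7.8e-05) and 0.32 (adjusted p = 1.3e-06). Pfkfb3 fell with a log2 FC of -0.21 (adjusted p = 4.9e-05) and rose with a log2 FC of 0.15 (adjusted p = 0.0011) in turn.

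In the lower part of glycolysis, 6 of 8 genes fell in Hdac1-deficient enteroids, 1 rose and 1 did not pass the test. In Hdac2-deficient enteroids 3 rose and 3 fell. In either direction these were 87.5% and 75%, against 64.6% and 62.3% of all genes tested. Pgk1, phosphoglycerate kinase, was counted at 1442, 1408, 1369.5 and 1379 CPM in the control libraries. The values were 863, 906, 905 and 872 CPM with Hdac1 deleted and 1191, 1241, 1219.9 and 1239 CPM with Hdac2 deleted. Its log2 FCs were -0.64 (standard error 0.03, adjusted p = 1.5e-12) and -0.18 (standard error 0.03, adjusted p = 1.3e-05), and no group overlapped another. Pgam1, phosphoglycerate mutase, was counted at 341, 326, 325 and 331 CPM in control. Hdac1-deficient libraries had 187, 189, 194 and 193 CPM, and Hdac2-deficient libraries had 222, 237, 227 and 238 CPM. It fell with log2 FCs of -0.78 (standard error 0.03, adjusted p = 2.2e-14) with Hdac1 deleted and -0.51 (standard error 0.03, adjusted p = 5.9e-12) with Hdac2 deleted. Tpi1, triosephosphate isomerase, and Eno1, the widespread enolase, fell with log2 FCs of -0.33 (adjusted p = 4.3e-08) and -0.45 (adjusted p = 2.9e-10) in Hdac1-deficient enteroids, and stood at log2 FCs of -0.05 (adjusted p = 0.17) and -0.02 (adjusted p = 0.62) in Hdac2-deficient enteroids. Eno3, the muscle enolase, was counted at 18.01, 16.1, 15.2 and 17.3 CPM in the control libraries. The values were 11.9, 10.7, 12.2 and 16.9 CPM with Hdac1 deleted and 9.73, 10.4, 11.2 and 10.8 CPM with Hdac2 deleted. Hdac1-deficient replicate 4 lay within the control range, and the log2 FC was -0.35 (standard error 0.12, adjusted p = 0.024). Without control replicate 1 or 4 or Hdac1-deficient replicate 1 or 3, the adjusted p was 0.065, 0.055, 0.070 and 0.068, above the threshold. In Hdac2-deficient enteroids the log2 FC was -0.65 (standard error 0.07, adjusted p = 6.9e-08), with no overlap. Gapdh, glyceraldehyde-3-phosphate dehydrogenase and a common reference gene, had a log2 FC of -0.02 (adjusted p = 0.69) in Hdac1-deficient enteroids and rose with a log2 FC of 0.22 (adjusted p = 3.1e-06) in Hdac2-deficient enteroids.

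The final step of glycolysis showed opposite movements of its isozymes in Hdac1-deficient enteroids. Pklr, the pyruvate kinase of liver and intestine, was counted at 933, 888, 895 and 919 CPM in control. Hdac1-deficient libraries had 1450.4, 1351, 1311 and 1489 CPM, and Hdac2-deficient libraries had 1219, 1124, 1132 and 1227 CPM. It rose with log2 FCs of 0.64 (standard error 0.04, adjusted p = 2.5e-11) and 0.38 (standard error 0.03, adjusted p = 2.6e-09), with no overlap with control. Pkm, which encodes the M1 and M2 pyruvate kinases, gave 2831, 2755, 2683 and 2694 CPM in the control libraries. The values were 2264, 2221, 2228 and 2408 CPM with Hdac1 deleted and 3010.1, 2952, 2933 and 3052 CPM with Hdac2 deleted. It fell with a log2 FC of -0.25 (adjusted p = 5.2e-06) with Hdac1 deleted and rose with a log2 FC of 0.13 (adjusted p = 5.6e-04) with Hdac2 deleted. Gene counts do not separate the M1 and M2 transcripts. Many glycolytic genes, among them Gapdh, Pgk1, Eno1, Tpi1, Pgam1, Aldoa, Pkm and Ldha, have processed copies elsewhere in the genome, and how reads shared with a copy were counted is not given in the sources used here.

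Among genes that handle pyruvate and lactate, 2 rose and 4 fell in Hdac1-deficient enteroids and 5 rose and 2 fell in Hdac2-deficient enteroids, of 9 tested. In either direction these were 66.7% and 77.8%, against 64.6% and 62.3% of all genes tested. Ldha, which reduces pyruvate to lactate, was counted at 3194, 2929.6, 2898 and 2936 CPM in control. Hdac1-deficient libraries had 2966, 2949, 2918 and 3148 CPM, and Hdac2-deficient libraries had 3209, 3240.1, 3198 and 3377 CPM. The Hdac1-deficient libraries overlapped control at a log2 FC of 0.02 (adjusted p = 0.71), and the Hdac2-deficient libraries lay just above control at a log2 FC of 0.13 (adjusted p = 0.0019). Ldhb, the heart-type subunit, had 7, 1, 8 and 5 counts in control, 4, 2, 5 and 8 in Hdac1-deficient and 18, 18, 9 and 8 in Hdac2-deficient libraries, and did not pass the filter. With no filter its log2 FC was 1.53 in Hdac2-deficient enteroids (adjusted p = 0.0027, edgeR).

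Slc16a1 (MCT1), the monocarboxylate carrier, was counted at 229, 229, 230.3 and 217 CPM in the control libraries. The values were 151, 146, 152 and 150.2 CPM with Hdac1 deleted and 184, 190.4, 193 and 194 CPM with Hdac2 deleted. It fell in both mutants with log2 FCs of -0.58 (adjusted p = 2.4e-12) and -0.24 (adjusted p = 4.1e-07), with the Hdac1-deficient libraries lowest. Slc16a3 (MCT4), a lactate exporter, fell with a log2 FC of -0.24 (adjusted p = 5.2e-06) with Hdac1 deleted and rose with a log2 FC of 0.24 (adjusted p = 3.9e-07) with Hdac2 deleted. Mpc1 and Mpc2 form the carrier that brings pyruvate into mitochondria, where Mpc1 rose with log2 FCs of 0.16 (adjusted p = 0.0040) and 0.23 (adjusted p = 2.3e-04) and Mpc2 had log2 FCs of 0.09 (adjusted p = 0.077) and 0.07 (adjusted p = 0.18). Pdha1, the catalytic subunit of pyruvate dehydrogenase, had log2 FCs of -0.05 (adjusted p = 0.16) and 0.00 (adjusted p = 0.97). Its kinases, which inactivate it, differed from one another. Pdk1, a hypoxia-responsive kinase, was counted at 284, 297, 291 and 275 CPM in control. Hdac1-deficient libraries had 214, 221, 223 and 214 CPM, and Hdac2-deficient libraries had 319.6, 326, 322 and 324 CPM. Pdk2, the widespread kinase, gave 67.5, 66.8, 63.3 and 64.6 CPM in the control libraries. The values were 91.3, 92.5, 89.9 and 91.7 CPM with Hdac1 deleted and 95.8, 93.5, 95.5 and 106 CPM with Hdac2 deleted. Pdk1 thus lay below control in Hdac1-deficient (log2 FC -0.38, adjusted p = 2.5e-09) and above it in Hdac2-deficient enteroids (log2 FC 0.18, adjusted p = 1.2e-05), and Pdk2 rose in both (log2 FC 0.49, adjusted p = 2.6e-10, and 0.59, adjusted p = 4.4e-11). Pdk3 fell with log2 FCs of -0.19 (adjusted p = 0.0025) and -0.20 (adjusted p = 9.9e-04).

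The 3 largest increases among the 42 genes tested in Hdac1-deficient enteroids were of gluconeogenic genes. Of this group, 3 of 5 rose and 2 fell in Hdac1-deficient enteroids, all more than 2-fold, a limit that 10.6% of all genes tested passed. Fbp1, fructose-1,6-bisphosphatase (ENSMUSG00000069805, chr13:62864753-62888282), was counted at 89.3, 76.1, 77.3 and 84.5 CPM in control. Hdac1-deficient libraries had 374, 354, 337 and 374 CPM, and Hdac2-deficient libraries had 138, 124, 122 and 148 CPM. Hdac1-deficient libraries were the highest and no group overlapped another. Its log2 FC was 2.15 (standard error 0.05, adjusted p = 1.1e-15), a 4.44-fold increase, with Hdac1 deleted and 0.71 (standard error 0.07, adjusted p = 1.5e-05), or 1.64-fold, with Hdac2 deleted. G6pc, the catalytic subunit of glucose-6-phosphatase, which releases free glucose (ENSMUSG00000078650, chr11:101367561-101377903), was counted at 48.7, 42.8, 42.8 and 45.8 CPM in the control libraries. The values were 154, 131, 129.6 and 161 CPM with Hdac1 deleted and 93.3, 79.3, 78.5 and 104 CPM with Hdac2 deleted. The log2 FC was 1.69 (standard error 0.08, adjusted p = 9.3e-09) with Hdac1 deleted and 0.99 (standard error 0.10, adjusted p = 3.6e-05) with Hdac2 deleted, just under 2-fold in the latter.

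Phosphoenolpyruvate carboxykinase has a cytosolic form, Pck1, and a mitochondrial form, Pck2. Pck1 was scarce, at 0.671, 0.495, 0.796 and 0.543 CPM in control. Hdac1-deficient libraries had 2.06, 3.01, 2.26 and 2.18 CPM, and Hdac2-deficient libraries had 1.47, 1.25, 1.02 and 1.52 CPM. These control levels correspond to 13 to 24 counts per library. It rose with log2 FCs of 1.93 (standard error 0.20, adjusted p = 5.5e-08) with Hdac1 deleted and 1.07 (standard error 0.23, adjusted p = 3.2e-04) with Hdac2 deleted, and every mutant library was above every control library. Pck2 (ENSMUSG00000040618, chr14:55540266-55551242) was counted at 168, 183, 190.4 and 179.9 CPM in the control libraries. The values were 76.7, 83.4, 81.6 and 69.9 CPM with Hdac1 deleted and 125, 143, 143 and 131 CPM with Hdac2 deleted. It fell with log2 FCs of -1.20 (standard error 0.05, adjusted p = 2.2e-12) and -0.41 (standard error 0.05, adjusted p = 2.3e-06), also without overlap. Pcx, pyruvate carboxylase, which makes oxaloacetate from pyruvate (ENSMUSG00000024892, chr19:4510472-4621752), was counted at 61.7, 61.4, 61.7 and 58.9 CPM in control. Hdac1-deficient libraries had 25.9, 26.9, 25.4 and 27.6 CPM, and Hdac2-deficient libraries had 66.5, 68.8, 66.2 and 69.9 CPM. The Hdac1-deficient libraries were far below both other groups, at a log2 FC of -1.19 (standard error 0.04, adjusted p = 3.7e-15), while the Hdac2-deficient libraries were all above control, at a log2 FC of 0.17 (standard error 0.04, adjusted p = 4.0e-04).

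**Figure D3:**
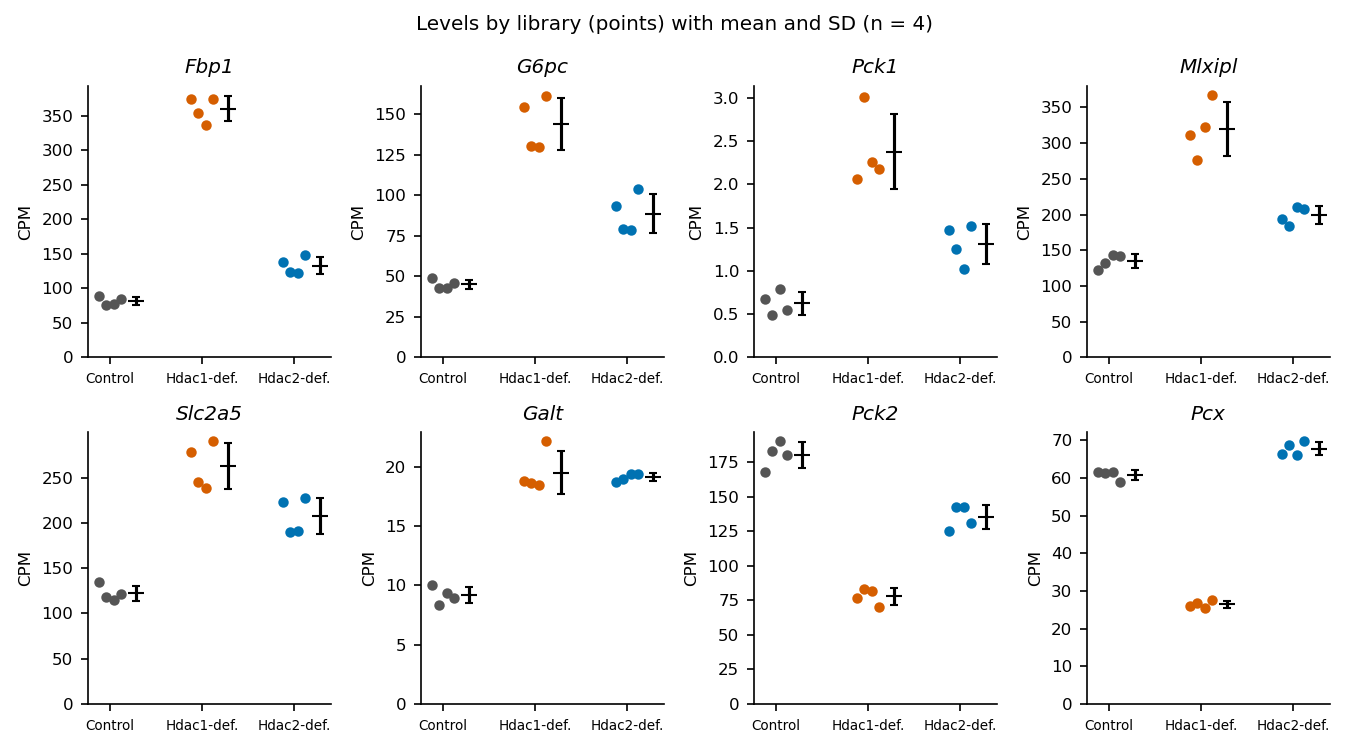
CPM (y axes, from 0) of 8 genes in each library (points) with the group mean and SD (n = 4) beside them, for control (grey), Hdac1-deficient (orange) and Hdac2-deficient (blue) enteroids. Fbp1, G6pc, Pck1, Mlxipl and Slc2a5 step up from control through Hdac2-deficient to Hdac1-deficient libraries, Galt is at a similar level in both mutants, and Pcx is low in Hdac1-deficient libraries only.

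Of the 2 genes of galactose use, Galt, which transfers UMP to galactose 1-phosphate (ENSMUSG00000036073, chr4:41755228-41758695), was counted at 9.99, 8.38, 9.35 and 8.93 CPM in the control libraries. The values were 18.8, 18.6, 18.5 and 22.2 CPM with Hdac1 deleted and 18.7, 18.95, 19.4 and 19.4 CPM with Hdac2 deleted. Both mutant groups lay above control, with log2 FCs of 1.10 (standard error 0.07, adjusted p = 9.4e-11) and 1.07 (standard error 0.06, adjusted p = 5.2e-12). Galt is among the genes described below whose exons overlap those of another gene, and whether counting used strand is not given in the sources used here. Galk1, galactokinase, was counted at 108, 105, 102 and 102 CPM in control. Hdac1-deficient libraries had 116, 124, 123 and 113 CPM, and Hdac2-deficient libraries had 80.6, 84.8, 86.0 and 81.0 CPM. It rose with a log2 FC of 0.20 (adjusted p = 8.5e-05) with Hdac1 deleted and fell with a log2 FC of -0.32 (adjusted p = 6.4e-08) with Hdac2 deleted, and the 3 groups did not overlap.

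Mlxipl encodes ChREBP, a transcription factor that is activated by sugar metabolites and drives glycolytic and lipogenic genes, among them Pklr and Txnip. It was counted at 122, 132, 143 and 142 CPM in the control libraries. The values were 311, 276, 322 and 368 CPM with Hdac1 deleted and 194, 184, 211 and 208 CPM with Hdac2 deleted. The 3 groups were separate, and the log2 FC was 1.26 (standard error 0.09, adjusted p = 4.6e-06) with Hdac1 deleted and 0.57 (standard error 0.06, adjusted p = 2.9e-06) with Hdac2 deleted. Txnip, an arrestin-like protein that restrains glucose uptake and is induced by glucose, was counted at 597, 647, 636 and 610.0 CPM in control. Hdac1-deficient libraries had 518, 511, 538 and 560.2 CPM, and Hdac2-deficient libraries had 658, 659.9, 700.1 and 662 CPM. In Hdac1-deficient enteroids it fell, with a log2 FC of -0.21 (standard error 0.04, adjusted p = 3.9e-05), and rose with a log2 FC of 0.12 (adjusted p = 0.0035) in Hdac2-deficient enteroids. Pklr and Txnip, whose windows both held the tandem motif, differed in direction in Hdac1-deficient enteroids.

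The isozyme make-up of several steps is described as the share of a family's summed RPKM, without a test. Pklr made up 33.9% ± 0.529 (SD, n = 4) of pyruvate kinase RPKM in control, 48.7% ± 0.881 with Hdac1 deleted and 37.8% ± 0.709 with Hdac2 deleted, and the ranges of the 3 groups did not overlap. Among the PDH kinases, Pdk1 had the largest share in control at 53.9% ± 0.775. In Hdac1-deficient enteroids Pdk2 was at 43.6% ± 0.808 and Pdk1 at 42.3% ± 0.362. The order of these 2 depends on the exon lengths used, 7779 bases for Pdk1 and 3163 for Pdk2. In CPM, Pdk1 stood above Pdk2 there, at 218 and 91.3. Slc2a1 gave 43.1% ± 1.15 of the RPKM of Slc2a1, Slc2a2 and Slc2a5 in control but 23.4% ± 1.98 in Hdac1-deficient enteroids, where Slc2a5 gave 49.2% ± 2.10. The share of Hk1 beside Hk2 was 32.7% ± 0.885, 38.7% ± 0.776 and 42.4% ± 0.408, and that of Pfkl in phosphofructokinase 66.9% ± 0.569, 61.8% ± 0.907 and 61.5% ± 0.628. Hkdc1, a hexokinase gene outside the 43, is not part of the hexokinase share. It stood at 29.1 RPKM in control, 43.5 with Hdac1 deleted and 48.5 with Hdac2 deleted. Hk1 and Hk2 together stood at 25.1, 17.1 and 25.5 RPKM in the same order. Slc16a1 gave 50.3% ± 0.630 of the RPKM of Slc16a1 and Slc16a3 in control, 44.4% ± 0.980 with Hdac1 deleted and 42.0% ± 0.871 with Hdac2 deleted. Ldhb was at most 0.0457% of lactate dehydrogenase RPKM in any library, and Pck1 was 0.784% ± 0.162 of carboxykinase RPKM in control and 6.48% ± 0.828 in Hdac1-deficient enteroids.

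**Figure D4:**
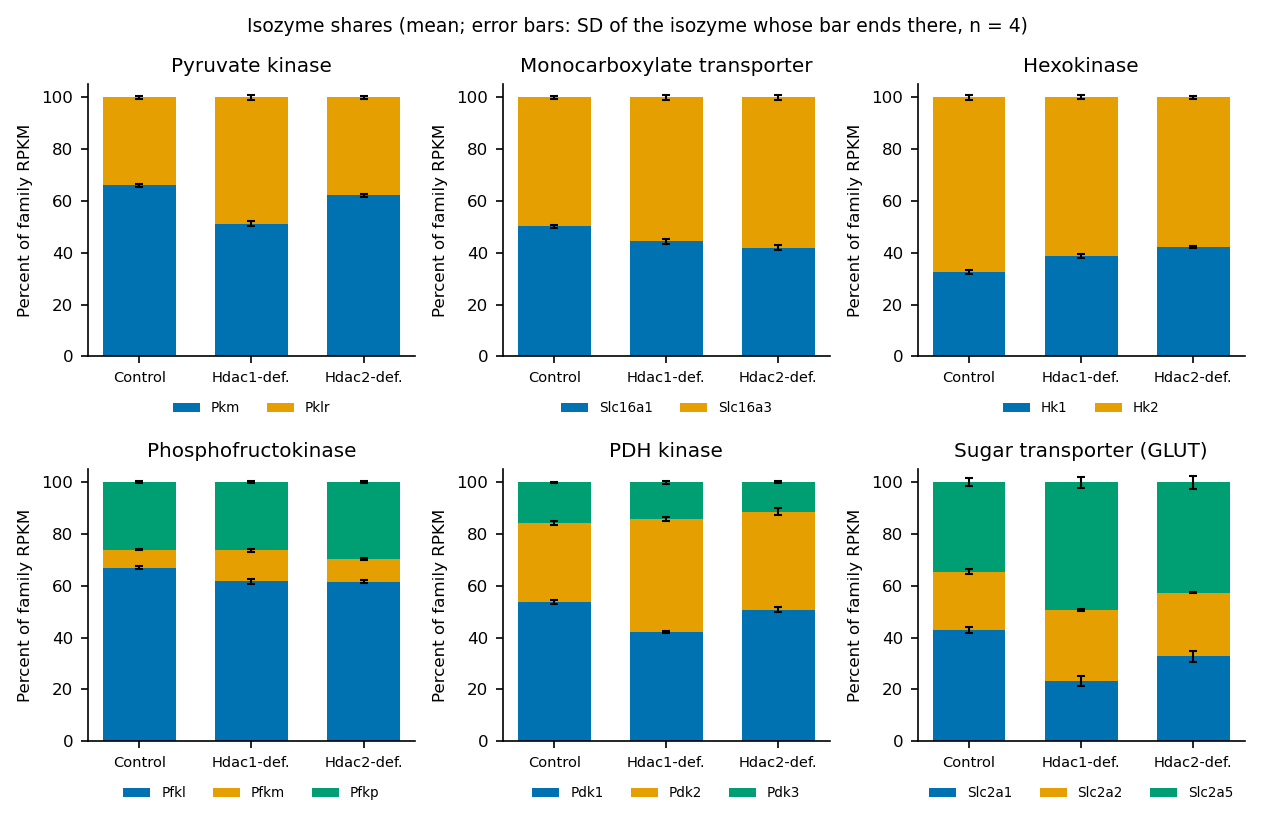
Stacked bars of the mean percent of each family's RPKM contributed by each isozyme in the 3 groups (error bars: SD, n = 4). In Hdac1-deficient enteroids Pklr takes 48.7% of pyruvate kinase RPKM, the largest share of the 3 groups, and Slc2a1 takes 23.4% of the GLUT RPKM, the smallest.

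By length-scaled level, Ldha was the most abundant of the 43 genes in control at 903 RPKM, followed by Aldoa at 822, Gapdh at 651 and Pgk1 at 624 RPKM. The length is that of all annotated exons of a gene, such as 3310 bases for Ldha and 4133 for Gapdh. It can exceed that of the transcripts present, so the order of genes is uncertain. Slc5a1 (282 RPKM) and Pklr (281 RPKM) were well above Fbp1 (48.0), Pck2 (23.1), G6pc (18.7), Pcx (12.8) and Galt (3.71 RPKM), and Pck1 (0.183 RPKM) and Ldhb (0.118 RPKM) were the lowest. In Hdac1-deficient enteroids Fbp1 reached 211 RPKM and G6pc 59.7 RPKM, whereas Aldoa stood at 633 and Pgk1 at 395 RPKM.

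When the mutants were compared directly in a fit of all 12 libraries, 11 of the 42 genes were higher and 23 lower with Hdac1 deleted than with Hdac2 deleted, against 22.3% and 23.7% (45.9% in either direction) of all 14510 genes tested. Only Fbp1 (log2 FC 1.44, standard error 0.07, adjusted p = 1.6e-09) was past 2-fold upward and only Pcx (log2 FC -1.36, standard error 0.04, adjusted p = 6.1e-20) downward, limits that 2.74% and 2.89% (5.62% in either direction) of all genes passed. The 2 groups did not overlap for 34 of the 42, compared with 41.7% of all genes tested. Without any 1 Hdac1-deficient library, or Hdac2-deficient replicate 4, Ldhb also passed the filter and was lower past 2-fold, with log2 FCs from -2.09 to -1.42. The transporters Slc2a2 (log2 FC 0.29, adjusted p = 7.5e-08), Slc2a5 (log2 FC 0.34, adjusted p = 0.0085) and Slc5a1 (log2 FC 0.28, adjusted p = 2.0e-04) were higher in Hdac1-deficient enteroids, as were Khk (log2 FC 0.43, adjusted p = 9.3e-07), Pklr (log2 FC 0.25, adjusted p = 6.5e-06), G6pc (log2 FC 0.70, adjusted p = 3.5e-04), Pck1 (log2 FC 0.85, adjusted p = 3.2e-04), Galk1 (log2 FC 0.52, adjusted p = 5.6e-12), Mlxipl (log2 FC 0.68, adjusted p = 9.8e-05) and Pfkfb4 (log2 FC 0.32, adjusted p = 1.4e-06).

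The 17 tested genes of glycolysis from Gpi1 to pyruvate kinase include the regulatory Pfkfb genes. Of these 17, 12 were lower with Hdac1 deleted than with Hdac2 deleted and 2 higher, against 23.7% and 22.3% of all genes tested. The largest of these differences were those of Aldoc (log2 FC -0.81, adjusted p = 1.1e-16), Pfkp (log2 FC -0.62, adjusted p = 7.9e-16) and Gpi1 (log2 FC -0.52, adjusted p = 1.2e-13). Hk1 (log2 FC -0.71, adjusted p = 1.8e-14), Pck2 (log2 FC -0.79, adjusted p = 5.7e-09), Pdk1 (log2 FC -0.57, adjusted p = 8.1e-15), Slc16a3 (log2 FC -0.48, adjusted p = 2.9e-12) and Txnip (log2 FC -0.33, adjusted p = 9.3e-09) were lower too. The test was not passed for Pfkm (log2 FC -0.01, adjusted p = 0.88), Pfkfb2 (log2 FC 0.12, adjusted p = 0.32), Pdha1 (log2 FC -0.05, adjusted p = 0.13), Pdk3 (log2 FC 0.01, adjusted p = 0.84), Mpc1 (log2 FC -0.07, adjusted p = 0.22), Mpc2 (log2 FC 0.02, adjusted p = 0.79) and Galt (log2 FC 0.03, adjusted p = 0.73). Eno3 (log2 FC 0.30, adjusted p = 0.054) also missed the threshold, but was higher with Hdac1 deleted by DESeq2 (adjusted p = 0.021), with library size alone (0.029), with a mean of at least 10 counts (0.044), with the replicate block (0.023), and without Hdac1-deficient replicate 1 (0.048) or 2 (0.0064). For Galt the difference was 0.03 with a standard error of 0.06, in a gene that was 2.14-fold and 2.10-fold the control level in the mutants. Pdk2, at a log2 FC of -0.09 (adjusted p = 0.039), did not pass the test with DESeq2 (adjusted p = 0.055), with library size alone (0.14) or with a mean of at least 10 counts (0.056). It also lost the call without any 1 of the Hdac1-deficient libraries (adjusted p from 0.056 to 0.087) and without Hdac2-deficient replicate 4 (0.23).

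The position of members on chromosomes is given for 5 of them. Protein-coding genes on chromosome 19, which carries Pgam1 and Pcx, had a median log2 FC of -0.53 with Hdac1 deleted and -0.52 with Hdac2 deleted, while those of other autosomes ranged between -0.05 and 0.12. The log2 FCs of Pgam1 were -0.78 and -0.51 and those of Pcx -1.19 and 0.17. The mutants had a median difference of 0.02 over chromosome 19 in the direct comparison, and Pcx a difference of -1.36. Pgk1, Pdha1 and Pdk3 lie on the X chromosome, whose medians were -0.02 and -0.04. Xist, the RNA that coats the inactive X, was counted at 1.57 ± 0.174 CPM in control. It had 917 ± 130.1 CPM where Hdac1 and 584 ± 83.0 CPM where Hdac2 had been deleted. The part of these chromosomal differences between the cultures in the values of the 5 genes was not tested.

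Exons of other genes overlap more than 10% of the exon length of 9 members, Galt among them. The partners of Pfkm, Pfkfb2 and Pkm lie on the same strand, where strand does not separate the reads, and those of the other 6 on the opposite strand, where reads cannot be told apart if counting ignored strand. Pklr shares 21.97% with Hcn3, at 4.00 CPM in control, Pdha1 16.15% with Map3k15, at 26.0 CPM in control and 11.6 CPM in Hdac1-deficient libraries, and Txnip 19.4% with Gm15441, at 2.63 CPM. Gpi1 shares 11.48% with Gm26762 at 9.86 CPM. The partners of Mpc1 (23.05%), Pfkfb2 (17.4%) and Pfkm (10.21%) had 0.187, 0.164 and 0.275 CPM in control, and that of Pkm (15.34%) was not analysed here. The partners given here were each less abundant in control than the member they overlap.

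Genes around the 43 were described from lists of other sugar-related genes. Of all genes tested, 64.6% rose or fell with Hdac1 deleted and 62.3% with Hdac2 deleted. These shares stand beside the counts of every list here and in the paragraphs that follow. Of 11 other sugar and monocarboxylate transporters tested, 6 rose and 2 fell with Hdac1 deleted and 7 rose and 2 fell with Hdac2 deleted, with Slc5a4a (log2 FC 2.21, adjusted p = 2.4e-09, and 1.63, adjusted p = 5.8e-06), Slc5a11 (log2 FC 1.27, adjusted p = 1.9e-11, and 0.50, adjusted p = 1.8e-05) and Slc2a10 (log2 FC 0.98, adjusted p = 0.0032, and 1.28, adjusted p = 7.9e-05) among those past 2-fold in at least 1 of the mutants. Slc5a8, a carrier of short monocarboxylates, rose with a log2 FC of 2.17 (adjusted p = 1.1e-05) in Hdac1-deficient enteroids and had a log2 FC of 0.75 (adjusted p = 0.13) in Hdac2-deficient enteroids. In control, Slc5a4a and Slc2a10 stood at only 0.501 and 0.603 CPM, and Slc5a8 at 0.290 CPM, or 3 to 12 counts per library. All 5 disaccharidase genes rose in both mutants, including lactase, Lct (log2 FC 2.86, adjusted p = 7.4e-09, and 2.03, adjusted p = 7.3e-06), and sucrase-isomaltase, Sis (log2 FC 1.03, adjusted p = 1.8e-06, and 0.62, adjusted p = 5.7e-08). Lct and Sis are also among the enterocyte markers.

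Of 17 further genes of glycolysis and gluconeogenesis, 7 rose and 6 fell with Hdac1 deleted and 8 rose and 6 fell with Hdac2 deleted. Eno2, the neuronal enolase, fell from 3.55 CPM in control with log2 FCs of -2.61 (adjusted p = 2.0e-09) and -1.504 (adjusted p = 2.2e-07). Slc37a2, a sugar phosphate exchanger, rose from 1.13 CPM in control with log2 FCs of 2.44 (adjusted p = 4.6e-12) and 1.88 (adjusted p = 7.1e-10). Hkdc1, a further hexokinase of the intestine, rose with log2 FCs of 0.60 (adjusted p = 5.6e-11) and 0.75 (adjusted p = 6.8e-15). Of 17 genes of fructose, galactose and polyol conversion, 10 rose and 3 fell, and 11 rose and 2 fell, in turn. The aldose reductase-like genes Akr1b7 (1.01 and 1.18) and Akr1b10 (0.92 and 1.24) rose in both mutants, and Akr1b8 rose in Hdac2-deficient enteroids (log2 FC 1.26, adjusted p = 1.6e-14) but stood at a log2 FC of -0.11 (adjusted p = 0.15) in Hdac1-deficient enteroids, a difference of -1.37 (adjusted p = 2.4e-16) between the mutants.

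Of 17 genes around pyruvate dehydrogenase, 9 rose and 5 fell with Hdac1 deleted and 9 rose and 2 fell with Hdac2 deleted. In either direction these were 82.4% and 64.7%, against 64.6% and 62.3% of all genes tested. Me1, cytosolic malic enzyme, rose with log2 FCs of 0.67 (adjusted p = 4.6e-12) and 1.27 (adjusted p = 3.0e-18). Me3, a mitochondrial form at only 0.646 CPM in control, rose with a log2 FC of 1.14 (adjusted p = 1.0e-04) in Hdac1-deficient enteroids. Pdk4, the PDH kinase of the fasted state, fell with a log2 FC of -0.90 (adjusted p = 0.018) with Hdac1 deleted and rose with a log2 FC of 0.83 (adjusted p = 0.016) with Hdac2 deleted, from a mean of only 0.508 CPM in control. Of 12 pentose phosphate genes tested, 5 rose and 5 fell with Hdac1 deleted and 5 rose and 3 fell with Hdac2 deleted, with log2 FCs between -0.29 and 0.69 in the former. In glycogen metabolism, 2 of 15 rose and 8 fell in Hdac1-deficient enteroids and 3 of 14 rose and 2 fell in Hdac2-deficient enteroids. In either direction these were 66.7%, near the share of all genes, and 35.7%. Pygl, the liver glycogen phosphorylase, rose from 0.430 CPM with log2 FCs of 2.07 (adjusted p = 1.7e-07) and 1.55 (adjusted p = 1.7e-05). Of 16 other regulators of sugar use, 8 rose and 3 fell, and 10 rose and 3 fell, in turn, or 68.75% and 81.25% in either direction. Ppargc1a, a co-activator of gluconeogenic and mitochondrial genes, rose past 2-fold in Hdac2-deficient enteroids (log2 FC 1.05, adjusted p = 1.0e-12).

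Many glycolytic genes are induced under low oxygen, so 20 other hypoxia-responsive genes were described beside them. In Hdac1-deficient enteroids 15 fell and 2 rose, with a median log2 FC of -0.41, and in Hdac2-deficient enteroids 6 fell and 8 rose, with a median of 0.04. In either direction these were 85% and 70%, against 64.6% and 62.3% of all genes tested. Adm, adrenomedullin, fell past 2-fold (log2 FC -1.06, adjusted p = 2.4e-10) in Hdac1-deficient enteroids. In the direct comparison 18 of the 20 were lower with Hdac1 deleted than with Hdac2 deleted and 1 higher, against 23.7% and 22.3% of all genes tested. Their median was -0.45 beside 0.00540 for all genes. Ero1l, an oxidase of the endoplasmic reticulum, was past 2-fold (log2 FC -1.10, adjusted p = 1.0e-19) and is named after its value was seen. The 17 glycolysis members had medians of -0.33 and 0.12 against control, and oxygen supply in the cultures was not measured here.

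**Figure D5:**
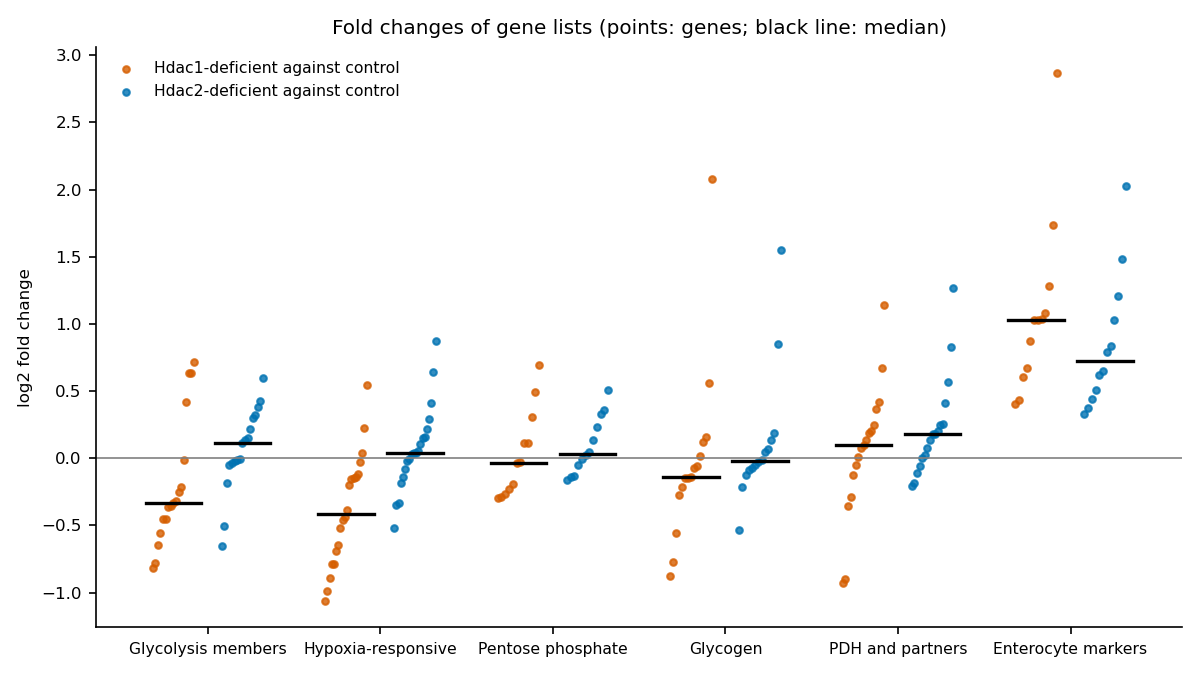
Log2 fold change against control (y axis) of the genes of 6 lists (x axis), for Hdac1-deficient (orange) and Hdac2-deficient (blue) enteroids, with the median as a black line. The medians of the glycolysis members and of the hypoxia-responsive genes lie below 0 in Hdac1-deficient enteroids and near 0 in Hdac2-deficient enteroids, and those of the enterocyte markers at 1.03 and 0.72.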

How the data were processed

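RNA-Seq of 12 enteroid libraries (4 per group) was analysed from the deposited gene counts. According to the submitters' processing notes and the methods of the study, the authors sequenced directional poly(A) libraries as paired 100-nt reads, aligned them with STAR 2.4.0f1 to GRCm38 and deposited a table of raw counts for each mutant beside the same controls, limited to genes whose counts summed to 10 or more. The counting tool, its annotation and its strand setting are not given in the sources used here. Columns of normalized values, log fold changes and p-values from the authors' own comparisons were not used.

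Counts were normalized by TMM, filtered with filterByExpr and tested with the quasi-likelihood F test of edgeR 4.0.16 (R 4.3.3, limma 3.58.1) over all genes, with Benjamini-Hochberg adjustment. Each mutant was fitted with the controls, and the mutants were compared in a fit of all 12 libraries. The procedure was tested on simulated data. CPM and RPKM (GENCODE M21 union exon lengths, 99.4% of gene IDs matched) are descriptive. Alternatives were DESeq2 1.42.0, other size factors and filters, a replicate block, other libraries in the fit, omission of chromosomes X, Y and 19, and omission of each library. Every member was described. From each other list, up to 3 genes per direction and mutant with the largest change past 2-fold were named, with Hkdc1, Pdk4, disaccharidases, the targeted genes and Xist named whatever their values. The members and lists were chosen with earlier results of these data known. Some items are not reported here.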

Additional observations from a re-analysis of the deposited data

Results flagged for a closer look

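Of 129 sets of 4 libraries (43 genes in 3 groups), 6 held a library set apart from the other 3 by Dixon's criterion, where chance gives about 1 in 20. Control replicate 1 was high for Tpi1, at 1499 CPM against 1389 to 1403 CPM, and for Ldha, at 3194 CPM against 2898 to 2936 CPM. Control replicate 4 was low for Pcx, at 58.9 CPM against 61.4 to 61.7 CPM, and for Slc16a1, at 217 CPM against 229 to 230.3 CPM. Hdac1-deficient replicate 4 was high for Galt, at 22.2 CPM against 18.5 to 18.8 CPM, and Hdac2-deficient replicate 3 for Txnip, at 700.1 CPM against 658 to 662 CPM.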

How the results depend on the processing

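Of 2001 gene values recomputed under the alternatives, 1953 kept direction and side of the threshold, 12 lost the call, 13 gained it and 23 changed sign, and 292 of 306 counts stayed within 1.5 times. The sign changes were of values near 0 that did not pass the test. Calls were gained in Hdac2-deficient enteroids by Tpi1 (adjusted p = 0.019) and Gpi1 (0.041) with library size alone and by Slc2a1 without each of 3 single libraries, and by Mpc2 without control replicate 1 in both mutants (0.0085 and 0.025), besides Eno3 between the mutants in 6 fits. Pdha1 in Hdac2-deficient enteroids had log2 FCs of -0.029 with library size alone, -0.00545 without a filter and -0.0083 with all 12 libraries, and Pfkm had 0.018 between the mutants with library size alone. Leaving out single libraries gave -0.031 to 0.0024 for Gapdh and -0.0057 to 0.048 for Ldha where Hdac1 had been deleted. In Hdac2-deficient enteroids it gave -0.027 to 0.0015 for Aldoc, -0.037 to 0.0012 for Pfkl and -0.011 to 0.0083 for Pdha1. Between the mutants it gave -0.016 to 0.039 for Mpc2, -0.044 to 0.023 for Pfkm, -0.021 to 0.038 for Pdk3 and -0.036 to 0.061 for Galt. Without chromosomes X, Y and 19, which removes Pcx and Pgam1, 1 member fell past 2-fold with Hdac1 deleted, 5 fell with Hdac2 deleted, 0 were lower past 2-fold between the mutants, and 1 gene of the other lists was higher past 2-fold between them. Without a filter, 2 members were lower past 2-fold between the mutants, as Ldhb entered. Of all genes tested, 1581 instead of 979 rose past 2-fold in Hdac1-deficient enteroids without a filter, and in Hdac2-deficient enteroids 1170 instead of 764 rose and 622 instead of 398 fell past 2-fold. Without single libraries, 2 to 4 members rose past 2-fold in Hdac2-deficient enteroids and 1 to 2 were lower past 2-fold between the mutants. In the other lists, 1 to 2 genes fell past 2-fold in Hdac2-deficient enteroids and 1 to 3 were higher past 2-fold between the mutants. The replicate block left all counts of members as they were except that 12 instead of 11 were higher with Hdac1 deleted than with Hdac2 deleted, where Eno3 gained the call. Libraries of the same number correlated between -0.050 and 0.094 in their deviations from the group means, so the numbers were not taken to pair them. Ldhb and Pck1, at 1 to 18 and 13 to 93 counts per library, are limited by depth.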
